A study of Mus musculus with 8 samples.

Results

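Genes that slow cell division or answer cellular stress, 10 in all, were followed in the neonatal mouse testis. They were the 3 Gadd45 genes (Gadd45a, Gadd45b and Gadd45g), Btg1 and Btg2, the cyclin G genes Ccng1 and Ccng2, the tumour suppressor gene Trp53 (p53), and its targets Mdm2 and Bbc3. The genes were taken by symbol from a deposited table of 49139 distinct transcripts under 24499 symbols. All 10 were found, with 17 transcripts, and the transcript with the highest average level stood for its gene. Whole testes had been collected at postnatal day 5 from 4 mice labelled Dio3KO and 4 wild-type mice, both on the 129/SVJ background, and RNA was sequenced. The deiodinase made from Dio3 inactivates thyroid hormones, and the title of the study asks which genes of the neonatal testis thyroid hormone regulates. No label states how Dio3 was altered, whether the change was limited to any cell type, or whether littermates were compared.

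Each transcript was given as a group mean in RPKM, a read density corrected for transcript length and sequencing depth, with the coefficient of variation (CV, the SD divided by the mean) of each group. No value of a single mouse was used, so whether individual mice of the groups overlapped cannot be told, and the depth of sequencing is unknown. Dio3 itself was higher in Dio3KO-labelled testes, at 2.95 RPKM (CV 0.29), against 0.52 RPKM (CV 0.20) in wild-type testes, so its level does not check the labels and the groups are called by them. The labels give testis as the tissue, while the extraction text names another organ, the hypothalamus. Of 10 hypothalamus and brain markers, 7 were below 1 RPKM in both groups and the highest, Mbp, was at 2.39 RPKM in Dio3KO-labelled and 4.40 RPKM in wild-type testes. The Sertoli cell gene Amh was at 127 RPKM in Dio3KO-labelled and 284 RPKM in wild-type testes. It is named to show the tissue and does not stand for its list. Among 10 Sertoli cell markers, 3 were higher and 4 lower in Dio3KO-labelled testes by the test given below. In whole tissue, fewer cells of a type and less RNA per cell cannot be told apart.

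p53 is a transcription factor that is stabilised after DNA damage and other stress and switches on genes for cell cycle arrest, repair and cell death. Mdm2 is both its target and the ubiquitin ligase that removes it, which closes a feedback loop. GADD45 proteins are small stress-induced partners of the p38 and JNK kinase cascade, of PCNA and of CDK1. BTG proteins recruit the CCR4-NOT complex, which shortens the poly(A) tails of messenger RNAs, and restrain proliferation. In the testis around birth, Sertoli cells still divide, and thyroid hormone is known to bring that division to an end.

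Of the 10 genes, 4 carry an exact match to the p53 decamer consensus near their start. These matches are shown because their genes did not share a direction: Gadd45a rose and Trp53 fell in Dio3KO-labelled testes, and Ccng1 and Mdm2 did not pass the test given below. A full p53 response element is a pair of such decamers. Only exact single decamers were searched for, so near matches are not marked. In the Ccng1 stretch the flank just before the capitals, agacctgccc, departs from the consensus at a single base. The flanks of the other stretches depart from it at more. The sequences are RefSeq promoters (GRCm38.p6, the assembly of mm10), each written along the strand of its gene with the decamer in capitals.
Gadd45a, chr6:67037428-67037457, minus strand: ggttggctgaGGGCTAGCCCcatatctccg
Ccng1, chr11:40755452-40755481, minus strand: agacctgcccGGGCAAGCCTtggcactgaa
Trp53, chr11:69580274-69580303, plus strand: acccacggaaGGACTTGCCCttacttgtta
Mdm2, chr10:117710925-117710954, minus strand: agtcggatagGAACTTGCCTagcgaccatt
The decamer begins 40 bases before the RefSeq start in Gadd45a, 185 bases before it in Ccng1, 75 in Trp53 and 186 in Mdm2. For Gadd45a the GENCODE start, given with the gene below, lies farther upstream than the RefSeq start. The Gadd45a decamer is therefore inside the gene as GENCODE places it, while the other decamers lie upstream of both starts. Windows of 250 bases before to 50 bases after the start were searched on both strands, and the consensus reads the same on each. It occurred in 8.36% of all 32851 promoters. The members had 12 promoters, 3 of them of Bbc3. A match is a description of the letters and not evidence of binding, and the best known p53 elements of Mdm2 and Gadd45a lie in introns outside these windows.

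Of the 10 genes, 4 rose in Dio3KO-labelled testes (Gadd45a, Gadd45b, Btg2 and Bbc3), 2 fell (Ccng2 and Trp53) and 4 did not pass (Gadd45g, Btg1, Ccng1 and Mdm2). Rise and fall are written where the authors' deposited table gave an adjusted p under 0.05. Over all 15821 genes with at least 1 RPKM in either group, 29.7% were called by that rule, 13.8% higher and 15.8% lower. A moderated limma test, made from the same means and CVs by pooling the spread over genes, called 5 members higher and 2 lower. Over all measured genes it called 41.6%, of which higher 18.5% and lower 23.1%. All 10 members were above 1 RPKM in both groups. Their median log2 ratio was 0.11, where that of all measured genes was -0.05. Log2 ratios are Dio3KO-labelled over wild type after 0.5 RPKM was added to each mean, and their standard errors (SE) come from the deposited CVs. In the Gadd45, BTG and cyclin G families, at least 1 gene changed while a relative did not pass. Differences between genes were not tested, since the table holds no values of single mice.

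Markers of other cells and of division differed between the same groups. All 12 markers of proliferating cells fell, and their summed level was 366 RPKM in Dio3KO-labelled and 630 RPKM in wild-type testes. Of 9 macrophage markers, 7 rose and 0 fell (limma's count was 9 and 0), with a summed level of 140.0 RPKM in Dio3KO-labelled and 70.9 RPKM in wild-type testes. Of 7 endothelial markers, 4 rose and 0 fell (6 and 0 by the moderated limma test), with sums of 72.6 RPKM in Dio3KO-labelled and 57.1 RPKM in wild-type testes. Among 10 Sertoli cell markers, 3 rose and 4 fell, among 7 Leydig cell markers 2 rose and 1 fell, and among 5 peritubular myoid markers 2 rose and 1 fell. None of 9 measured germ cell markers passed, while limma counted 2 higher and 4 lower. No marker of a macrophage or endothelial cell in these lists was at 0. The part of these shifts in the changes of Gadd45a, Gadd45b, Btg2, Bbc3, Ccng2 and Trp53 was not tested.

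**Figure D1:**
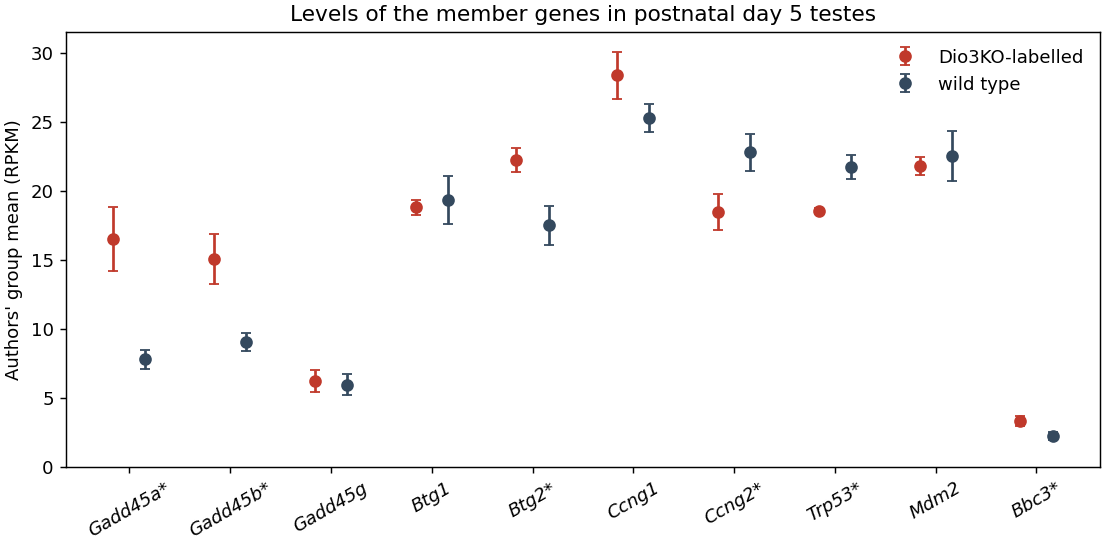
Authors' mean RPKM of each gene in Dio3KO-labelled (left point of each pair) and wild-type testes (right point). Bars span 1 SD either side as the deposited CV gives it, with 4 mice per group, and an asterisk marks a gene whose adjusted p was under 0.05 (the authors' deposited table). Gadd45a, at 16.5 RPKM in Dio3KO-labelled and 7.77 RPKM in wild-type testes, shows the widest relative gap.

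Gadd45a (ENSMUSG00000036390.8, chr6:67035096-67037457, minus strand) had the largest change of the 10. It averaged 16.5 RPKM (CV 0.14) in Dio3KO-labelled testes and 7.77 RPKM (CV 0.09) in wild-type testes, and was the single member past a 2-fold ratio. Its log2 ratio was 1.04 ± 0.12 (SE), at percentile 98.6 of all measured genes (the authors' deposited table, adjusted p 0.0191). The gap between the means was 2.90 times the sum of the SDs of both groups. Gadd45b (ENSMUSG00000015312.9, chr10:80930073-80932204, plus strand), which NF-kappa-B and TGF-beta signalling induce, rose less. Its means were 15.1 RPKM (CV 0.12) in Dio3KO-labelled and 9.04 RPKM (CV 0.07) in wild-type testes, a log2 ratio of 0.71 ± 0.10 (SE; adjusted p 0.0220, the authors' deposited table).

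Gadd45g (ENSMUSG00000021453.2, chr13:51846678-51848468, plus strand), which is needed for the start of testis formation in the mouse embryo, was the lowest of the family. It stood at 6.19 RPKM (CV 0.13) in Dio3KO-labelled and 5.95 RPKM (CV 0.13) in wild-type testes (the authors' deposited table, adjusted p 0.6352). The approximate 95% interval of its log2 ratio ran from -0.25 to 0.35, while that of Gadd45a ran from 0.76 to 1.32 and that of Gadd45b from 0.47 to 0.94. In wild-type testes the 3 genes lay between 5.95 and 9.04 RPKM, and in Dio3KO-labelled testes Gadd45a and Gadd45b were both above 15 RPKM.

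Btg2 (ENSMUSG00000020423.6, chr1:134075170-134079120, minus strand), an early response gene and p53 target, averaged 22.2 RPKM (CV 0.04) in Dio3KO-labelled testes and 17.5 RPKM (CV 0.08) in wild-type testes. The log2 ratio was 0.34 ± 0.06 (SE; adjusted p 0.0158, the authors' deposited table), and the gap was 2.07 times the summed SDs. Btg1 (ENSMUSG00000036478.8, chr10:96617006-96622809, plus strand), its closest relative, had nearly equal means. They were 18.8 RPKM (CV 0.03) in Dio3KO-labelled and 19.3 RPKM (CV 0.09) in wild-type testes (the authors' deposited table, adjusted p 0.5904). The approximate 95% interval of the log2 ratio ran from -0.20 to 0.13 for Btg1 and from 0.18 to 0.49 for Btg2.

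In the search of the promoters, AGGTCA, the core of a thyroid hormone receptor element, was found in Btg2 alone among the members and in 16.3% of all promoters. The Btg2 promoter also holds TGACG, the half-site of a cyclic AMP response element, on both strands with 2 bases shared. Together the half-sites read TGACGTCA, a full palindrome. TGACG was held by 20.8% of promoters, and the share with the full palindrome was not computed. Both stretches lie upstream of the start and are shown because Btg2 rose and Btg1 did not pass.
Btg2, chr1:134079290-134079315, minus strand, AGGTCA on the opposite strand in capitals: cagtgagcgaTGACCTcagcgcctgg
Btg2, chr1:134079307-134079331, minus strand, TGACG in capitals: ttcccaataaTGACGtcagtgagcg
TGACG was also present in promoters of Btg1, Mdm2 and Bbc3, but in none of them as the full palindrome. A single AGGTCA is not a full element, which needs a pair of them.

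Of the cyclin G genes, Ccng1 (ENSMUSG00000020326.7, chr11:40748552-40755311, minus strand) is a p53 target that recruits a phosphatase to MDM2. It was the most abundant member per length, at 28.4 RPKM (CV 0.06) in Dio3KO-labelled and 25.3 RPKM (CV 0.04) in wild-type testes. It did not pass (the authors' deposited table, adjusted p 0.0696), although the approximate 95% interval of its log2 ratio, 0.04 to 0.29, lay above 0. The moderated limma test gave Ccng1 an adjusted p of 0.0324. Ccng2 (ENSMUSG00000029385.14, chr5:93267257-93276231, plus strand), a cyclin of non-dividing cells that FoxO factors induce, fell. It averaged 18.5 RPKM (CV 0.07) in Dio3KO-labelled and 22.8 RPKM (CV 0.06) in wild-type testes, a log2 ratio of -0.30 ± 0.06 (SE; adjusted p 0.0206, the authors' deposited table). With both groups scaled to the same RPKM sum, the log2 ratio of Ccng2 was -0.20. Its other transcript had 18.0 RPKM in Dio3KO-labelled and 22.2 RPKM in wild-type testes.

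**Figure D2:**
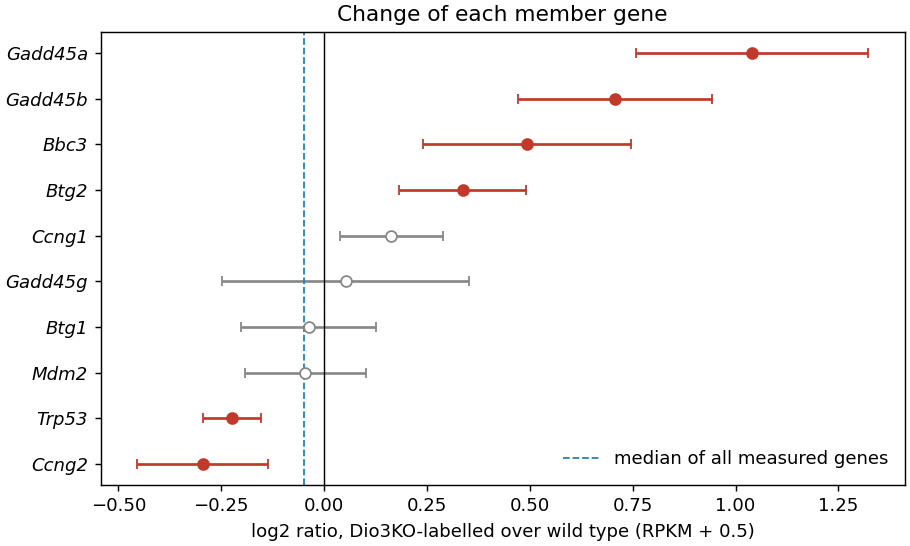
Log2 ratio of each gene, Dio3KO-labelled over wild type (RPKM + 0.5), with its approximate 95% interval from the deposited CVs. Filled red points passed 0.05 in the authors' deposited table, open points did not, and the dashed line is the median of all measured genes, -0.05. Gadd45a lies farthest right at 1.04 and Ccng2 farthest left at -0.30.

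Trp53 (ENSMUSG00000059552.13, chr11:69580359-69591873, plus strand) fell by a small amount. It averaged 18.6 RPKM (CV 0.01) in Dio3KO-labelled testes and 21.8 RPKM (CV 0.04) in wild-type testes. The log2 ratio was -0.22 ± 0.03 (SE; adjusted p 0.0229, the authors' deposited table), and the gap was 3.03 times the summed SDs. That was the most of any member, but with CVs rounded to 0.01 its order against Gadd45a, at 2.90, is not settled. With both groups scaled to the same RPKM sum, the log2 ratio of Trp53 was -0.12. All 4 Trp53 transcripts fell, with means of 14.1 to 18.6 RPKM in Dio3KO-labelled and 17.2 to 21.8 RPKM in wild-type testes. Their adjusted p values ran from 0.0117 to 0.0229 in the authors' deposited table, but transcripts that share exons share reads. The p53 protein is controlled mainly by its stability, which these data do not measure.

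Mdm2 (ENSMUSG00000020184.15, chr10:117688875-117710758, minus strand) stood at 21.8 RPKM (CV 0.03) in Dio3KO-labelled and 22.5 RPKM (CV 0.08) in wild-type testes. Its adjusted p was 0.5085 in the authors' deposited table and the 95% interval of its log2 ratio ran from -0.19 to 0.10. None of its 4 transcripts passed, at 17.4 to 21.8 RPKM in Dio3KO-labelled and 18.4 to 22.5 RPKM in wild-type testes. Bbc3 (ENSMUSG00000002083.13, chr7:16308393-16318205, plus strand), which encodes PUMA, a killer protein of the BH3-only class, was the member with the lowest level. It rose to 3.33 RPKM (CV 0.11) in Dio3KO-labelled testes, against 2.22 RPKM (CV 0.13) in wild-type testes. Its log2 ratio was 0.49 ± 0.10 (SE; adjusted p 0.0231, the authors' deposited table).

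**Figure D3:**
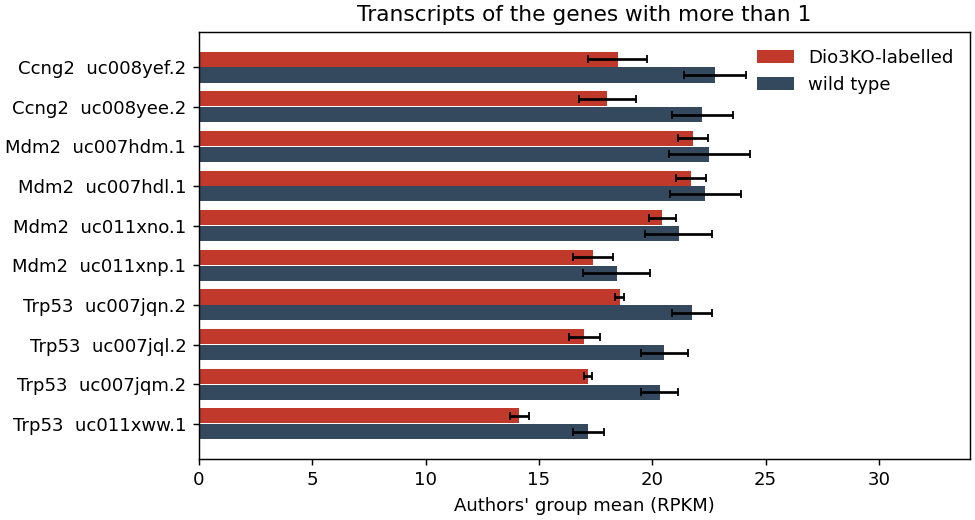
Authors' mean RPKM of every transcript of Ccng2, Mdm2 and Trp53, the 3 genes with more than 1, in Dio3KO-labelled (upper bar) and wild-type testes (lower bar). Error bars are 1 SD as the deposited CV gives it, with 4 mice per group. Each Trp53 transcript is lower in Dio3KO-labelled testes, while each Mdm2 pair differs by less than the wild-type SD.

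Ordered by level, the wild-type means ran from Bbc3 at 2.22 RPKM through Gadd45g, Gadd45a and Gadd45b to Btg2 at 17.5, Btg1 at 19.3, Trp53 at 21.8, Mdm2 at 22.5, Ccng2 at 22.8 and Ccng1 at 25.3 RPKM. Of these, Trp53, Mdm2 and Ccng2 differed by no more than 1 SD of Ccng2. In Dio3KO-labelled testes Gadd45a, at 16.5 RPKM, stood above Gadd45b, at 15.1 RPKM, by less than 1 SD of either gene.

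Counts in the pathway lists that follow are to be set beside the 13.8% higher and 15.8% lower of all measured genes. Those of the moderated limma test are to be set beside its own 18.5% higher and 23.1% lower. Of 26 other p53 targets measured, 4 rose, 4 fell and 18 did not pass, close to the shares over all measured genes. Their median log2 ratio was -0.08. Dram1, a lysosomal gene of autophagy, rose to 4.98 RPKM in Dio3KO-labelled testes, against 2.29 RPKM in wild-type testes (the authors' deposited table, adjusted p 0.0056). The sestrin Sesn1, which restrains mTORC1, was at 37.1 RPKM in Dio3KO-labelled and 29.6 RPKM in wild-type testes (the authors' deposited table, adjusted p 0.0082). Trp53i11 fell, at 9.69 RPKM in Dio3KO-labelled and 13.2 RPKM in wild-type testes. Bax (36.2 RPKM in Dio3KO-labelled and 40.4 RPKM in wild-type testes) and Ei24 (40.2 RPKM in Dio3KO-labelled and 42.6 RPKM in wild-type testes) did not pass.

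Some further p53 targets were named after their values were seen. Cdkn1a, the classic arrest target p21, was below the 1 RPKM limit, at 0.69 RPKM (CV 0.20) in Dio3KO-labelled and 0.54 RPKM (CV 0.42) in wild-type testes. The other sestrin of the p53 target list, Sesn2, rose to 16.9 RPKM in Dio3KO-labelled testes, against 9.50 RPKM in wild-type testes. The cytokine gene Gdf15 fell to 0.70 RPKM (CV 0.34) in Dio3KO-labelled testes, against 4.61 RPKM (CV 0.30) in wild-type testes, a log2 ratio of -2.09 (the authors' deposited table, adjusted p 0.0391). Ckap2, a spindle protein, fell to 18.7 RPKM in Dio3KO-labelled testes, against 27.5 RPKM in wild-type testes. Rrm2b, a ribonucleotide reductase subunit, rose to 5.43 RPKM in Dio3KO-labelled testes, against 4.55 RPKM in wild-type testes, and the damage-binding gene Ddb2 fell to 10.7 RPKM in Dio3KO-labelled testes, against 12.4 RPKM in wild-type testes.

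Of 17 measured p53 regulators and relatives, 1 rose, 5 fell and 11 did not pass. Their median log2 ratio was -0.09. The checkpoint kinase genes Chek2 and Chek1 fell. Chek2 was at 7.94 RPKM in Dio3KO-labelled and 11.7 RPKM in wild-type testes (the authors' deposited table, adjusted p 0.0082). Chek1 was at 7.86 RPKM in Dio3KO-labelled and 11.6 RPKM in wild-type testes. Ppp1r13l, which encodes the p53 inhibitor iASPP, fell to 0.74 RPKM in Dio3KO-labelled testes, against 1.24 RPKM in wild-type testes. Mdm4, the partner of MDM2, was at 22.4 RPKM in Dio3KO-labelled and 24.7 RPKM in wild-type testes and did not pass, nor did the ubiquitin ligase gene Cop1, at 25.4 RPKM in Dio3KO-labelled and 24.0 RPKM in wild-type testes. The 1 that rose, Usp7, a deubiquitinase of MDM2 and p53 named after its value was seen, differed by a log2 ratio of 0.05 and was not called by the moderated limma test.

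Among BTG relatives, all 3 that were measured had higher means in Dio3KO-labelled testes and 1 passed. Btg3 rose to 50.1 RPKM in Dio3KO-labelled testes, against 42.2 RPKM in wild-type testes (the authors' deposited table, adjusted p 0.0396). Tob1 (11.5 RPKM in Dio3KO-labelled and 8.86 RPKM in wild-type testes) and Tob2 (7.12 RPKM in Dio3KO-labelled and 6.48 RPKM in wild-type testes) did not pass. The CCR4-NOT subunits and poly(A)-binding proteins that act with them went lower where they passed. Of 13 measured, 6 fell, 0 rose and 7 did not pass. The list median was -0.16. By the moderated limma test, 7 were lower and 1 was higher. Cnot10 was at 28.8 RPKM in Dio3KO-labelled and 32.9 RPKM in wild-type testes (the authors' deposited table, adjusted p 0.0165). Cnot3 (7.92 RPKM in Dio3KO-labelled and 9.31 RPKM in wild-type testes) and Cnot2 (37.1 RPKM in Dio3KO-labelled and 41.5 RPKM in wild-type testes) also fell. The deadenylase Cnot7, to which BTG and TOB proteins bind, was the 1 member with a higher mean, at 58.5 RPKM in Dio3KO-labelled and 50.3 RPKM in wild-type testes, and did not pass. The poly(A)-binding protein gene Pabpc1 (75.9 RPKM in Dio3KO-labelled and 84.9 RPKM in wild-type testes) did not pass either.

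Of 13 measured partners of the GADD45 proteins and stress kinases, 1 rose, 5 fell and 7 did not pass. As a list they had a median of -0.15. Pcna, the sliding clamp of DNA replication, fell to 108 RPKM (CV 0.06) in Dio3KO-labelled testes, against 162 RPKM (CV 0.04) in wild-type testes (the authors' deposited table, adjusted p 0.0031). Gadd45gip1, which encodes a mitochondrial ribosome protein that binds GADD45 proteins, was at 32.9 RPKM in Dio3KO-labelled and 43.4 RPKM in wild-type testes (the authors' deposited table, adjusted p 0.0050). Mapk9, which encodes the kinase JNK2, was the member that rose, at 45.8 RPKM in Dio3KO-labelled and 33.7 RPKM in wild-type testes. Map3k4, the kinase that GADD45 proteins activate, was at 28.5 RPKM in Dio3KO-labelled and 29.3 RPKM in wild-type testes and did not pass, nor did Map2k4 (26.2 RPKM in Dio3KO-labelled and 24.1 RPKM in wild-type testes). Cdk1, named after its value was seen, fell to 29.7 RPKM in Dio3KO-labelled testes, against 48.9 RPKM in wild-type testes. Cdk1 is also counted among the markers of proliferating cells above.

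The BCL2 family, to which PUMA belongs, held 6 members that rose, 2 that fell and 8 that did not pass of 16 measured. The list median was 0.10. The BH3-only gene Bmf rose to 10.8 RPKM in Dio3KO-labelled testes, against 6.60 RPKM in wild-type testes (the authors' deposited table, adjusted p 0.0030). Bcl2l11, which encodes BIM, was at 6.08 RPKM in Dio3KO-labelled and 4.85 RPKM in wild-type testes. The pore-forming gene Bak1 fell to 8.13 RPKM in Dio3KO-labelled testes, against 10.6 RPKM in wild-type testes. Bnip3 (43.8 RPKM in Dio3KO-labelled and 42.0 RPKM in wild-type testes) did not pass. Hrk, a BH3-only gene named after its value was seen, had the largest ratio of the family, at 7.94 RPKM (CV 0.16) in Dio3KO-labelled and 1.39 RPKM (CV 0.19) in wild-type testes. Its log2 ratio was 2.16 ± 0.15 (SE; adjusted p 0.0141, the authors' deposited table). The survival gene Mcl1, also named after its value was seen, rose to 69.5 RPKM in Dio3KO-labelled testes, against 55.8 RPKM in wild-type testes.

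Other Gadd genes come from the integrated stress response. Of 9 measured genes of this response, 2 rose, 0 fell and 7 did not pass, where 29.7% of all measured genes were called. Their median log2 ratio was 0.13, while limma counted 3 higher and 0 lower. Atf3, a stress-induced transcription factor, rose to 8.58 RPKM (CV 0.19) in Dio3KO-labelled testes, against 2.78 RPKM (CV 0.22) in wild-type testes (the authors' deposited table, adjusted p 0.0197). Sesn2 is also counted here. Atf4 (65.0 RPKM in Dio3KO-labelled and 65.3 RPKM in wild-type testes) and Ddit4 (40.5 RPKM in Dio3KO-labelled and 46.1 RPKM in wild-type testes) did not pass. The founding relatives Ddit3 (Gadd153), at 13.4 RPKM in Dio3KO-labelled and 11.2 RPKM in wild-type testes, and Ppp1r15a (Gadd34), at 18.1 RPKM in Dio3KO-labelled and 16.4 RPKM in wild-type testes, were named after their values were seen and did not pass.

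Of 12 FoxO factors and FoxO targets, 4 rose, 0 fell and 8 did not pass. The list median was 0.04, while limma counted 4 higher and 1 lower. Sesn3, a sestrin induced by FoxO, was at 16.6 RPKM in Dio3KO-labelled and 12.2 RPKM in wild-type testes (the authors' deposited table, adjusted p 0.0039). Bcl6 (1.76 RPKM in Dio3KO-labelled and 1.20 RPKM in wild-type testes) and the pocket protein gene Rbl2 (15.7 RPKM in Dio3KO-labelled and 12.4 RPKM in wild-type testes) rose. Foxo3 (48.4 RPKM in Dio3KO-labelled and 46.5 RPKM in wild-type testes) and Pink1 (61.4 RPKM in Dio3KO-labelled and 61.1 RPKM in wild-type testes) did not pass. Ccng2, which FoxO factors also induce, had moved the other way.

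**Figure D4:**
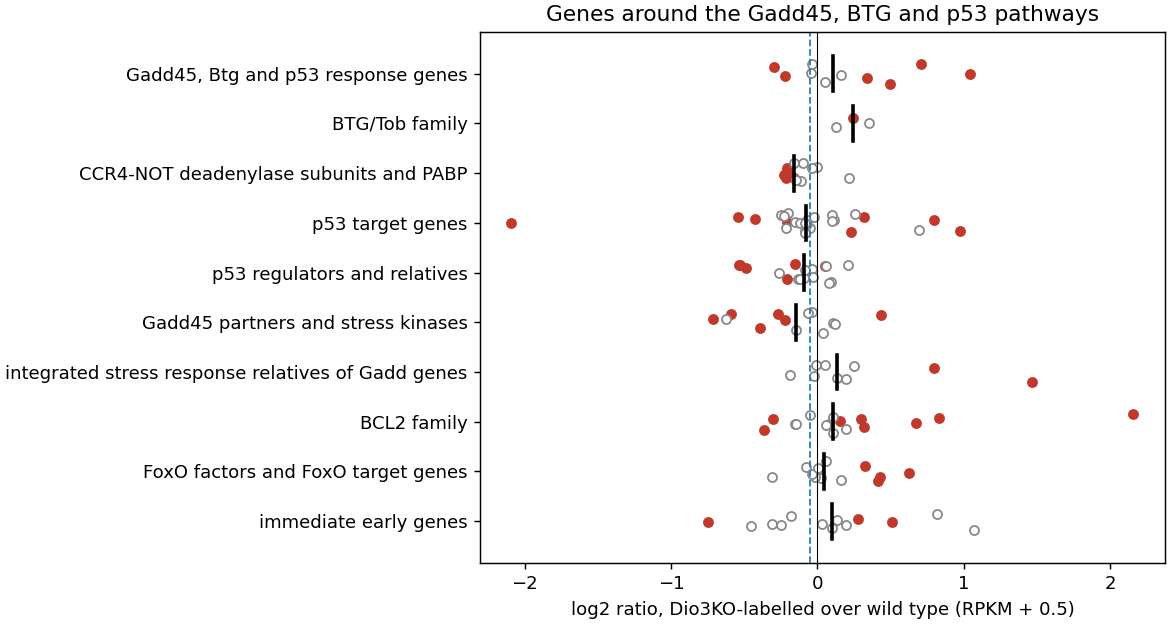
Log2 ratios, Dio3KO-labelled over wild type (RPKM + 0.5), of the 10 genes and of the measured genes of the 9 pathway lists. Each point is a gene, filled red where it passed 0.05 in the authors' deposited table, black bars are list medians and the dashed line is the median of all measured genes. The isolated point at the left is Gdf15 at -2.09 and that at the right is Hrk at 2.16.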

How the data were processed

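Per the labels, total RNA of testes from 8 mice was sequenced. FastQC, Novoalign 2.08 and the build mm10 are named in the submitters' processing notes, which state no role. The counting tool, annotation, strandedness and test were not given in the sources used here. Per the file headers, the authors deposited a mean RPKM per group, a coefficient of variation, which is a ratio of SD to mean rounded to 0.01, and an adjusted p-value. Columns were tied to groups by name. Of 147417 lines, each transcript stood 3 times, and 49139 were left.

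Genes with at least 1 RPKM in either group (15821) were taken as measured. Before the log2 ratio was taken, 0.5 RPKM was added to both means, so changes of low genes are understated. SEs follow from the CVs by the delta method with 4 mice per group, and approximate 95% intervals use 6 residual degrees of freedom. The moderated test used limma 3.58.1 in R 4.3.3 (squeezeVar with trend, robust) on variances from the CVs, a CV of 0 being set to 0.0025, with Benjamini-Hochberg adjustment over all measured genes. The moderated test was also run on simulated data for the comparison of Dio3KO with wild type over 15821 genes. There it called 89 of 100 doubled genes, 56 of 100 genes lowered by 0.5 on the log2 scale and 5 of 15621 unchanged genes. The simulation changed few genes and took the wild-type CV for both groups. In the data the test called 41.6% of measured genes, so these rates need not hold for them.

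The members, the 9 pathway lists and the 8 marker lists were chosen with earlier results of these data known. All 10 members are named, and from each pathway list up to 3 genes that passed, by lowest p, and up to 2 others with the highest level. Any other gene of the pathway lists is marked as such, while Dio3, Mbp and Amh were named to describe the samples. Coordinates are those of GENCODE M21 (GRCm38, the assembly of mm10), matched by symbol for all 10. Promoters of RefSeq (GRCm38.p6) were found for all 10. The labels do not say whether mice came from separate litters. Reads of transcripts that share exons, or of close paralogs, could not be separated.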

Additional observations from a re-analysis of the deposited data

How the results depend on the processing

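The counts of 4 members higher and 2 lower stood at the same or nearly the same values under the moderated limma test (5 and 2, the addition being Ccng1) and with the second highest transcript (4 and 2). That choice of transcript could change only Ccng2, Mdm2 and Trp53, since all 4 members that rose have 1 transcript. With a limit of 0.01 on the p of the authors' deposited table the counts were 0 higher and 0 lower. The smallest p of any transcript there was 0.0022. The share of all measured genes under 0.01 was not computed, so these counts have nothing to be set beside. The same moderated limma test was also read gene by gene and rerun under each scaling, both chosen after seeing the data. The test called Ccng1 at log2 ratios of 0.16 (as deposited), 0.21 (centred on the median gene) and 0.26 (equal RPKM sums). Its limma adjusted p values there were 0.0324, 0.0094 and 0.0025. Summed RPKM were 947625 in Dio3KO-labelled and 1015250 in wild-type testes, so equal sums add 0.10 to each log2 ratio. Btg1 and Mdm2, which did not pass, turned positive under either scaling, with or without limma. Btg1 was at 0.062 with equal sums and 0.011 when centred, and Mdm2 at 0.054 with equal sums and 0.0039 when centred. Their limma adjusted p values were 0.475 and 0.906 for Btg1, 0.505 and 0.966 for Mdm2. Trp53 kept its direction, at -0.22 as deposited, -0.17 centred and -0.12 with equal sums, with limma adjusted p values of 0.0024, 0.0102 and 0.0478. Ccng2 was at -0.30, -0.25 and -0.20 under the same settings. Changing the pseudocount to 0.1 or 1 or summing transcripts turned no direction.

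Among the pathway lists, an average of at least 5 RPKM left 18 p53 targets, 2 higher and 3 lower. It left 8 immediate early genes, 1 higher and 0 lower, with a median log2 ratio of -0.074. The share of all genes called above that average was not computed. The moderated limma test called 2 BTG relatives higher and 0 lower, 1 CCR4-NOT gene higher and 7 lower, 6 p53 targets higher and 8 lower, 4 FoxO genes higher and 1 lower, and 4 immediate early genes higher and 3 lower. Centring adds 0.05 to every list median, which brought the CCR4-NOT list to -0.11, the p53 regulators to -0.045, the p53 targets to -0.03 and the FoxO list to 0.09. The filter acts by dropping genes and centring by this shift, while the cause of the differences between the tests was not tested. No paired analysis was possible because the table holds group means, and for the same reason no replicate could be left out. The depth is unknown, so no counting interval was computed. CVs rounded to 0.01 limit the SE of genes with tight groups, Trp53 among them.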

Other observations

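Btg2 and Gadd45b are often grouped with the immediate early genes, which are induced within minutes of a stimulus. Of 13 measured immediate early genes, 2 rose, 1 fell and 10 did not pass. The list median was 0.10. Fos rose to 2.71 RPKM (CV 0.09) in Dio3KO-labelled testes, against 1.75 RPKM (CV 0.17) in wild-type testes (the authors' deposited table, adjusted p 0.0183). Jun was at 26.9 RPKM in Dio3KO-labelled and 22.1 RPKM in wild-type testes (the authors' deposited table, adjusted p 0.0425). Egr2 fell to 2.11 RPKM in Dio3KO-labelled testes, against 3.88 RPKM in wild-type testes (the authors' deposited table, adjusted p 0.0065). Jund (96.2 RPKM in Dio3KO-labelled and 109 RPKM in wild-type testes) and Ier2 (12.2 RPKM in Dio3KO-labelled and 11.9 RPKM in wild-type testes) did not pass. Ier3 and Junb, named after their values were seen, had wide gaps but did not pass. Ier3 stood at 9.85 RPKM (CV 0.23) in Dio3KO-labelled and 4.43 RPKM (CV 0.13) in wild-type testes (the authors' deposited table, adjusted p 0.0508). Junb stood at 8.38 RPKM (CV 0.19) in Dio3KO-labelled and 4.55 RPKM (CV 0.04) in wild-type testes (the authors' deposited table, adjusted p 0.0518). The moderated limma test gave them adjusted p values of 0.000243 and 0.00017.

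Of the other motifs searched on both strands of the promoters, GTAAACA, a core bound by FoxO factors, was found in Btg1, Mdm2 and 1 of 3 promoters of Bbc3, and in 3.65% of all promoters. Ccng2 held none of the 5 motifs in its window, nor did Gadd45b and Gadd45g. The NF-kappa-B decamer consensus was found in Trp53 and Bbc3 and in 8.46% of all promoters.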
